A study of Mus musculus with 22 samples.

Results

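Chromatin regulators, bromodomain proteins and histones were followed here through the ac4C peaks of their transcripts in the kidneys of diabetic mice. The genes were chosen by name alone, with a pattern over the gene symbols of the peak table that takes the bromodomain readers including Brd2, the chromatin remodelling ATPases with their subunits, the enzymes that add or remove acetyl and methyl groups on histones, the corepressor family of Rere, the DNA methylation enzymes and the histones themselves. The pattern took 215 peaks of 72 genes, of 9857 peaks of 4909 genes in the table. Because db/db and db/m peaks were listed separately and the lists overlap, the 215 peaks, 109 of them from the db/db list and 106 from the db/m list, cover 127 separate regions. An interval in both lists was tested once in each. Of the member peaks 75 (34.9%) were longer than 1000 bases on the genome, introns between exons included, against 30.1% of all peaks.

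The animals were 6 db/db mice, a model of obesity and type 2 diabetes through loss of the leptin receptor, and 5 db/m mice, heterozygous controls that keep 1 intact copy of the receptor gene. All were males, kidney was collected, and age at collection was not given in the sources used here. Each animal gave 1 acRIP-seq library, in which short mRNA fragments were pulled down with an antibody against N4-acetylcytidine (called IP here), and 1 RNA-seq library, 22 libraries in all. The peak table calls its second set of columns input, a word the labels do not use, and these were matched by genotype and animal number to the libraries not labelled IP; every ratio of IP over RNA-seq rests on that match. Levels are given as CPM, the reads of a peak scaled to one common library total, after TMM adjustment, which sets library sizes so that the bulk of peaks does not differ. IP and RNA-seq libraries were scaled apart, so a ratio of IP over RNA-seq compares a peak with the typical peak and does not give the share of molecules that carry ac4C.

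N4-acetylcytidine, or ac4C, is an acetyl mark on cytidines that the enzyme NAT10 places on RNA, and it is known for affecting how stable an mRNA is and how well it is translated. Chromatin regulators decide how tightly DNA is wound on histones. Writers add acetyl or methyl groups to histone tails, erasers take them off, bromodomain readers bind acetylated lysines, and remodelling ATPases slide or evict nucleosomes, so that together they set which genes a kidney cell can use.

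The tests below turned on Smarca2, Chd3 and H1f0. The promoter windows of Smarca2 and H1f0 are shown because all called peaks of each gene moved one way between the genotypes in both library types; the table of promoters used here had no entry for Chd3. Each window holds the 250 bases before the RefSeq start on GRCm38.p6, 5′ to 3′ on the gene's strand, with GC boxes (GGGCGG, or CCGCCC on the other strand) in capitals. H1f0 lies on the plus strand and its window is chr15:79027962-79028211, while Smarca2 also lies on the plus strand and its window is chr19:26604910-26605159.
H1f0: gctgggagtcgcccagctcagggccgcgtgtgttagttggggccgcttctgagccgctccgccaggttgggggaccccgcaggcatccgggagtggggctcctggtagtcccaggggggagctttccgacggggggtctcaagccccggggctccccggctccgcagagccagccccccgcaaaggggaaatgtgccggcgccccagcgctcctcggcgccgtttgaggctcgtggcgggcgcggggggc
Smarca2: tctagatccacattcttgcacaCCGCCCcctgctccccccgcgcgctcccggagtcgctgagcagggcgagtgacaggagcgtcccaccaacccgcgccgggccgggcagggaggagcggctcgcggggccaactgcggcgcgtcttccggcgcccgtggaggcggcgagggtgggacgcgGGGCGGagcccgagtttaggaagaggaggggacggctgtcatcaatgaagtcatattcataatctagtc
The Smarca2 window held 2 GC boxes and 28 CpG dinucleotides, and the H1f0 window held 0 GC boxes and 24 CpG dinucleotides. Neither window held a CCAAT box (CCAAT or ATTGG) or a TATA box (TATAAA or TTTATA). Over the 71 promoter windows found for 54 of the member genes, 74.6% held a GC box, against 32.7% of the 32851 windows of all genes, noncoding ones included. CCAAT boxes were in 35.2% of the member windows and 33.8% of all windows, and TATA boxes were in 1.41% and 12.4%. These are letter matches and do not show that a factor binds.

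Reads in peaks numbered 7577171 to 9862426 per IP library in db/db mice and 9125099 to 10293757 in db/m mice, and 3151035 to 3352535 per RNA-seq library, so that 3 reads, the most that a count of 0 allows, stood for 0.291 to 0.396 CPM in IP and 0.895 to 0.952 CPM in RNA-seq, for counting error only. Of the 215 member peaks, 30 held fewer than 10 IP reads on average. The kidney label was checked with tubule markers, of which 5 of 9 genes had a peak. Their summed RNA-seq level was 680 to 1764 CPM in db/db mice (median 1248) and 1605 to 1944 CPM in db/m mice (median 1720). That difference had a two-sided exact permutation p of 0.0152. The tubule markers did not all move one way. By the peak test described below, 2 of their 11 peaks were called lower in db/db mice and 1 higher in RNA-seq. In IP 0 were called lower and 1 higher. Podocyte markers (4 of 5 genes with a peak) summed to 59.4 to 122 CPM in db/db mice and 64.0 to 78.5 CPM in db/m mice in RNA-seq (exact permutation p = 0.0303), and endothelial markers (3 of 6) to 54.0 to 69.6 and 57.3 to 73.7 CPM. Leukocyte markers rested on 1 gene of 9 and fibroblast markers on 1 gene of 5, the latter at or near 0 CPM in every library. Adipocyte markers (3 of 9) summed in RNA-seq to 3.998 to 6.67 CPM in db/db mice and 13.0 to 70.2 CPM in db/m mice (exact permutation p = 0.00216). In IP the adipocyte sum was 2841, 3053 and 2701 CPM in db/m 1, 2 and 4 but 15.9 and 14.03 CPM in db/m 3 and 5, and 321 CPM in db/db 6 against 4.08 to 9.91 CPM in the other db/db mice. Lung markers (5 of 6) reached 11.2 to 47.1 CPM in IP of db/db mice 1 to 4, against 0.742 CPM or less in every other IP library. RNA-seq of the same animals did not show this: lung markers summed to 0 to 0.91 CPM in db/db mice and 0 to 1.27 CPM in db/m mice. Markers of cycling and erythroid cells had no peak (0 of 5 genes each). The part of these shifts in the results was not tested. For the RNA-seq shifts, in whole kidney fewer cells of a type and less RNA per cell cannot be told apart. The high lung and adipocyte sums in IP are another matter, since RNA-seq of the same animals did not match them. Adipocyte markers in RNA-seq of db/m 1, 2 and 4 were 67.7, 46.0 and 70.2 CPM. The source of these IP sums, and their bearing on other IP levels and ratios, was not tested.

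Taken over all peaks, the libraries of db/m 2 held more reads toward the 5′ ends of genes. In the peaks within 0 to 25% of their gene's length from the 5′ end, the db/m 2 IP library was above the other db/m libraries by a median log2 difference of 0.55 over 33 member peaks, against 0.00 over the 87 member peaks at 75 to 100%. Over all peaks these medians were 0.36 and -0.21 in IP, and 0.18 and -0.17 in RNA-seq. The excess in member peaks was not limited to the 5′ end: at 25 to 50% their IP median was 0.54. In RNA-seq the member medians were 0.16 at 0 to 25%, 0.67 at 25 to 50%, 0.39 at 50 to 75% and 0.00 at 75 to 100%. The first Smarca2 peak and the Chd3 peaks where db/m 2 was far above its genotype are given with and without it.

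Over all peaks, reads were tested between the genotypes with edgeR's quasi-likelihood test and Benjamini-Hochberg adjustment over the 9857 peaks, and a peak was called at an adjusted p under 0.05 with an absolute log2 fold change above 1. In the IP libraries 17 of the 215 member peaks were called, 7.91% against 3.32% of all peaks. Of these, 15 were lower in db/db mice (1.72% of all peaks were) and 2 were higher (1.59% of all peaks were). In the RNA-seq libraries 19 member peaks were called, 8.84% against 3.95% of all peaks, with 15 lower (1.97% of all peaks) and 4 higher (1.98% of all peaks). Counted by gene, the shares were close to those of all genes. The called peaks belonged to the same 3 of 72 genes in both library types, 4.17% of the genes, against 3.91% of all genes in IP and 4.66% of all genes in RNA-seq. Smarca2 and Chd3 gave all the lower calls and H1f0 all the higher ones, over 10 separate regions in IP and 11 in RNA-seq.

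The typical member peak lay near 0. The median log2 fold change of the member peaks was -0.01 in IP (0.00 over all peaks) and -0.03 in RNA-seq (-0.01 over all peaks). The genotypes did not overlap at all in 20 member peaks in IP (9.30%, against 5.77% of all peaks) and at 20 in RNA-seq (9.30%, against 7.89%). When IP was set against RNA-seq of the same animal, which asks whether the antibody pulled down more or less of a transcript than its amount accounts for, 1 member peak was called, in Brd2, and 0.0203% of all peaks were. The plot of IP against RNA-seq differences shows that the calls moved in both library types together.

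**Figure D1:**
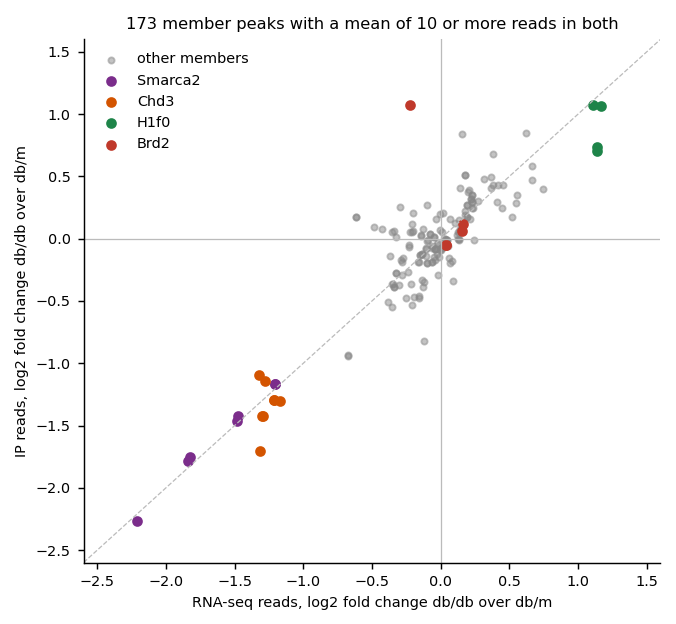
Each point is a member peak with at least 10 IP and 10 RNA-seq reads on average (173 peaks of 58 genes), placed by its log2 fold change (db/db minus db/m) in RNA-seq on the x axis and in IP on the y axis. The Smarca2 and Chd3 peaks lie at the lower left and the H1f0 peaks at the upper right, near the line of equal change, and the called Brd2 peak lies above it.

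Smarca2 encodes BRM, 1 of the pair of alternative ATPases that drive the SWI/SNF remodelling complex. All 7 of its peaks, in 4 regions, were lower in db/db mice in both IP and RNA-seq. The most-read peak, chr19:26771599-26776154, near the 3′ end of the gene, measured 415, 408, 333, 390, 329 and 504 CPM in IP of db/db mice 1 to 6 and 851, 782, 840, 911 and 1053 CPM in db/m mice 1 to 5. The highest db/db animal was well below the lowest db/m animal. The means were 396 ± 64.6 CPM (SD, n = 6) and 887 ± 103 CPM (SD, n = 5), a log2 fold change of -1.16 (SE 0.14, adjusted p = 1.92e-05 by edgeR's quasi-likelihood test, exact permutation p = 0.00216, the smallest the 462 splits of the animals allow).

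RNA-seq reads of the same Smarca2 peak were 507, 532, 438, 509, 410 and 689 CPM in db/db mice and 1101, 1161, 1226, 1160 and 1270 CPM in db/m mice, again without overlap. The log2 fold change was -1.20 (SE 0.13, adjusted p = 3.58e-06 by edgeR's quasi-likelihood test). In db/db mouse 6, the single db/db mouse with a tubule marker sum inside the db/m range (1764 CPM), Smarca2 was 689 CPM, the highest of its genotype. The lowest Smarca2 level, 410 CPM, was in db/db 5, which also had the lowest tubule marker sum (680 CPM). In db/m 3 and 5, whose adipocyte sums were low in IP, IP of this peak was 840 and 1053 CPM. Their adipocyte sums in RNA-seq, 16.7 and 13.0 CPM, were still above every db/db mouse. A link between these marker sums and Smarca2 was not tested. Set against RNA-seq, none of the 7 Smarca2 IP peaks was called (adjusted p 0.908 to 0.972). The 3′ peak overlaps the noncoding gene 4931403E22Rik, and reads of the pair cannot be told apart, because counts ignored strand.

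The fall was larger in the middle of Smarca2 than at its 3′ end. The peak chr19:26716185-26747762, which covers 31579 bases of the gene, measured 108, 131, 102, 121, 109 and 176 CPM in RNA-seq of db/db mice and 389, 504, 394, 438 and 478 CPM in db/m mice. Its log2 fold change was -1.83 (SE 0.14, adjusted p = 1.03e-07 by edgeR's quasi-likelihood test) and that in IP was -1.75 (SE 0.17, adjusted p = 3.83e-06). Taken within each animal, the log2 difference between this peak and the 3′ peak differed between db/db and db/m mice by -0.62 in RNA-seq (exact permutation p = 0.00216, 6 against 5 animals) and by -0.60 in IP (exact permutation p = 0.00433). The genotypes were apart in RNA-seq, with -2.22 to -1.91 in db/db mice and -1.64 to -1.20 in db/m mice. Comparisons between peaks of Smarca2 were not planned beforehand, so their p-values are a description. This one was not repeated without db/m 2.

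The first Smarca2 peak, chr19:26651652-26654360, carried fewer reads: 12.2, 28.2, 24.3, 29.5, 13.1 and 25.2 CPM in IP of db/db mice and 56.2, 245, 63.4, 78.9 and 87.5 CPM in IP of db/m mice. All db/db animals were below all db/m animals, and db/m 2 was far above the other db/m mice. The fitted log2 fold change was -2.27 in IP (SE 0.35, adjusted p = 0.000404 by edgeR's quasi-likelihood test) and -2.21 in RNA-seq (SE 0.36, adjusted p = 0.000323), and without db/m 2 it was -1.69 in IP and -1.56 in RNA-seq, still past both thresholds. Relative to the 3′ peak the genotypes differed by -0.90 in IP (exact permutation p = 0.039) and by -0.73 in RNA-seq (exact permutation p = 0.0736). Without db/m 2 these were -0.49 (exact permutation p = 0.10) and -0.33 (exact permutation p = 0.181).

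Between these, the peaks chr19:26751147-26752023 and chr19:26751844-26751993 fell by 1.46 (SE 0.14) and 1.43 (SE 0.15) on the log2 scale in IP, and by 1.48 each in RNA-seq. The alternative ATPase of the complex is BRG1, encoded by Smarca4. Its most-read peak, chr9:21700119-21703061, measured 274, 199, 229, 218, 249 and 289 CPM in IP of db/db mice and 274, 178, 220, 279 and 221 CPM in db/m mice, with full overlap and a log2 fold change of 0.05 (SE 0.15, adjusted p = 0.897 by edgeR's quasi-likelihood test). Within each animal, Smarca2 minus Smarca4 differed between db/db and db/m mice by -1.23 on the log2 scale in IP and -1.35 in RNA-seq. Smarca4 was added after its values were seen, so this restates the Smarca2 difference and no p is given. The most-read peaks of the core subunits Smarcc2 and Smarce1 had IP log2 fold changes of -0.08 and -0.09, and another Smarce1 peak gave 0.26. The core subunit Smarcc1 gave -0.55 and -0.51 at 2 overlapping peaks, neither called. Its genotypes did not overlap in either, as in 5.77% of all peaks.

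**Figure D2:**
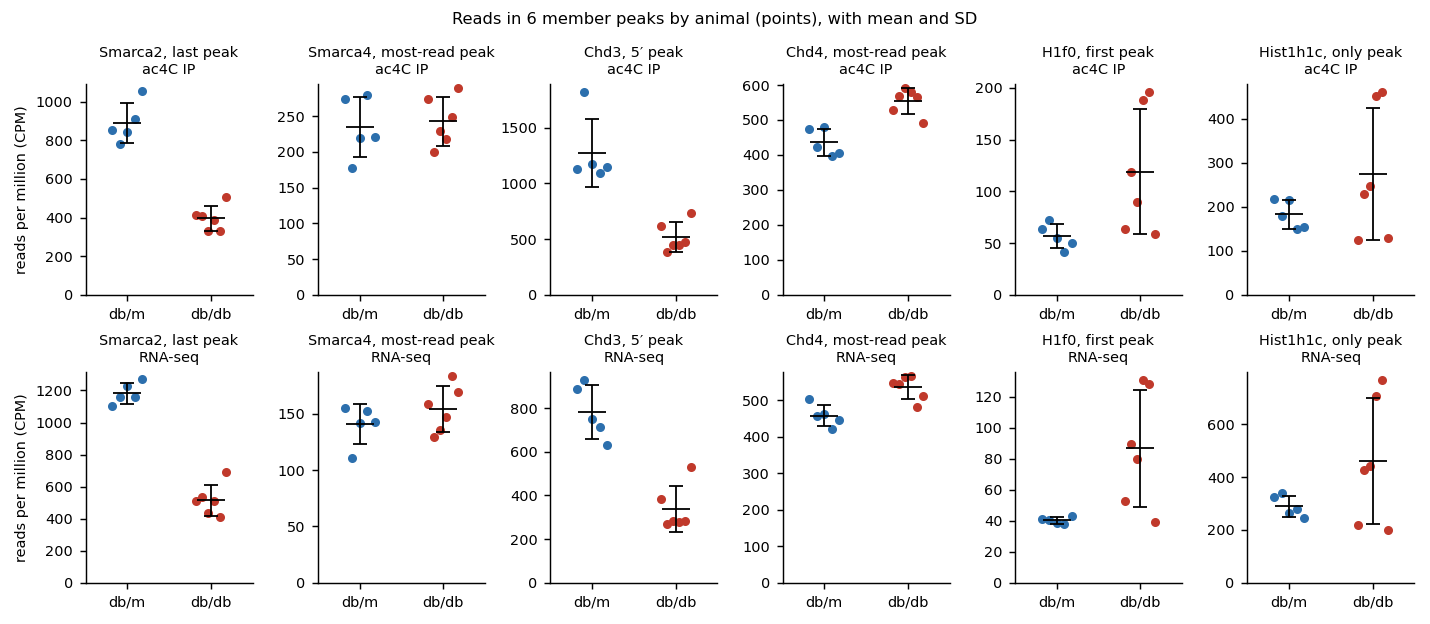
Levels in CPM of 6 member peaks, IP and RNA-seq, each panel on its own scale from 0, with 1 point per animal and the mean with its SD for db/db (n = 6) and db/m (n = 5). The peaks are those of Smarca2 (3′ peak), Chd3 (5′ peak) and H1f0 (first peak), each beside that of its relative Smarca4, Chd4 or Hist1h1c. Smarca2 and Chd3 are lower in every db/db animal than in every db/m animal, and H1f0 and Hist1h1c are highest in db/db 4 and 5.

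Chd3 encodes a helicase of the NuRD complex, which joins nucleosome remodelling to histone deacetylation. All 8 of its peaks, in 5 regions along the minus strand of chromosome 11, were called lower in db/db mice in IP and in RNA-seq. The most-read peak, chr11:69363730-69369406 at the 5′ end, measured 618, 386, 448, 444, 470 and 736 CPM in IP of db/db mice and 1126, 1818, 1176, 1095 and 1145 CPM in IP of db/m mice. No db/db animal reached the lowest db/m animal, db/db 6 was the highest of its genotype, and db/m 2 stood above the other db/m mice. The fitted log2 fold change was -1.30 (SE 0.18, adjusted p = 0.000118 by edgeR's quasi-likelihood test, exact permutation p 0.00216 or 0.00433 over the Chd3 peaks), and -1.14 without db/m 2.

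RNA-seq of this Chd3 peak gave 385, 269, 281, 277, 281 and 531 CPM in db/db mice and 886, 929, 751, 714 and 630 CPM in db/m mice. The groups did not overlap, and their log2 fold change was -1.21 (SE 0.17, adjusted p = 8.22e-05 by edgeR's quasi-likelihood test). The 5′ peak overlaps the noncoding gene Gm32483, whose reads cannot be told apart from those of Chd3 either. The peak nearest the 3′ end, chr11:69344381-69345188, fell by 1.30 in IP (SE 0.25) and by 1.17 in RNA-seq (SE 0.17), much as the 5′ peak did.

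Between the ends, the peak chr11:69347844-69348971 fell by 1.14 in IP and by 1.28 in RNA-seq, and the short peak chr11:69350845-69350905 fell by 1.70 in IP (SE 0.28) and by 1.32 in RNA-seq (SE 0.21). The peak chr11:69360631-69362103 fell by 1.42 in IP and by 1.30 in RNA-seq, and without db/m 2, far above its genotype here, by 1.14 and 1.10. The peak chr11:69348405-69348941 fell by 1.10 in IP, and without db/db 5 its log2 fold change of -0.99 missed the fold threshold at an adjusted p of 0.00532 by edgeR's quasi-likelihood test. None of the Chd3 peaks was called in IP relative to RNA-seq (adjusted p 0.736 to 0.93). Chd4, the alternative NuRD helicase, did not fall with it: its most-read peak, chr6:125121959-125122935, measured 491 to 591 CPM in IP of db/db mice and 396 to 479 CPM in db/m mice, with a log2 fold change of 0.35 (SE 0.12, adjusted p = 0.0917 by edgeR's quasi-likelihood test). The 8 Chd4 peaks ranged from -0.19 to 0.35 in IP, 4 of them above 0, and none was called. Within each animal, Chd3 minus the most-read Chd4 peak differed between the genotypes by -1.65 in IP, -1.51 without db/m 2, and -1.47 in RNA-seq. Chd4 was added after its values were seen, so this restates the Chd3 difference and no p is given.

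**Figure D3:**
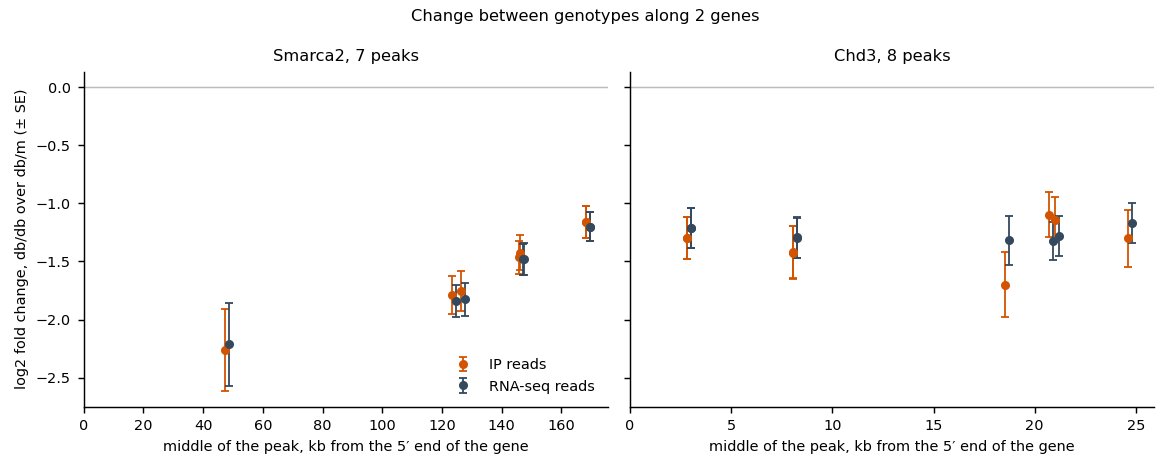
Log2 fold change (db/db minus db/m) of each peak of Smarca2 and Chd3 against its distance from the 5′ end of the gene in kb, for IP and RNA-seq with SE. All values are below 0. In IP the middle Smarca2 peaks lie lower (-1.79 and -1.75) than the last (-1.16), the first (-2.27) is -1.69 without db/m 2, and Chd3 has -1.30 at both ends.

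The higher calls were all in H1f0, 1 of 4 histone genes with a peak. H1f0 encodes H1.0, a linker histone that binds DNA between nucleosomes and is typical of resting, differentiated cells. Its peak chr15:79028420-79028628 measured 63.7, 119, 89.2, 188, 196 and 58.7 CPM in IP of db/db mice and 63.9, 72.2, 55.1, 41.7 and 50.3 CPM in db/m mice. The genotypes overlapped, since db/db 1 and 6 lay within the db/m range, while db/db 4 and 5 were the highest. The means were 119 ± 60.4 CPM (SD, n = 6) and 56.6 ± 11.8 CPM (SD, n = 5), a log2 fold change of 1.07 (SE 0.29, adjusted p = 0.0331 by edgeR's quasi-likelihood test, exact permutation p = 0.0346). Leaving out db/db 2, 4 or 5 or db/m 3, 4 or 5 raised the adjusted p to between 0.0584 and 0.0932. Without db/db 4, db/db 5 or db/m 4 the fold was also under the threshold (0.89, 0.90 and 0.98).

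In RNA-seq the same H1f0 peak measured 52.7, 89.3, 80.0, 131, 128 and 39.4 CPM in db/db mice and 41.1, 40.6, 38.3, 38.0 and 43.1 CPM in db/m mice, where only db/db 6 lay within the db/m range. The log2 fold change was 1.11 (SE 0.25, adjusted p = 0.0052 by edgeR's quasi-likelihood test, exact permutation p = 0.0238), and it was 0.95 without db/db 4 and 0.96 without db/db 5, each under the fold threshold. The downstream peak chr15:79029548-79029756 measured 32.8, 48.0, 35.7, 57.7, 63.8 and 26.7 CPM in RNA-seq of db/db mice and 22.5, 17.0, 20.3, 23.0 and 17.1 CPM in db/m mice. Here the genotypes did not overlap, and the log2 fold change was 1.14 (SE 0.21, adjusted p = 0.00117 by edgeR's quasi-likelihood test). In IP that peak gave 0.73 at an adjusted p of 0.108.

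Hist1h1c encodes another linker histone, H1.2. Its peak chr13:23739168-23739408 measured 125, 229, 247, 452, 461 and 129 CPM in IP of db/db mice and 217, 178, 216, 150 and 153 CPM in db/m mice, with db/db 4 and 5 highest as in H1f0 and db/db 1 and 6 below every db/m mouse. The log2 fold change was 0.58 in IP (adjusted p = 0.27 by edgeR's quasi-likelihood test) and 0.67 in RNA-seq (adjusted p = 0.141), neither called. Within each animal H1f0 minus Hist1h1c was higher in db/db mice by 0.52 on the log2 scale in IP and by 0.47 in RNA-seq. This comparison was added after the values were seen, so no p is given for it. The other 2 histone genes with a peak were H2afj, at -0.39 and -0.37 in IP (adjusted p 0.207 and 0.244), and H2afy, and none of their peaks was called. The 2 histone peaks called in IP and 4 in RNA-seq, of 12, are 16.7% and 33.3% against 3.32% and 3.95% of all peaks, and all are overlapping or neighbouring peaks of H1f0.

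Brd2 encodes a BET protein, a reader that holds transcription machinery at acetylated histones through its paired bromodomains. It had 9 peaks on the minus strand of chromosome 17, 2 of them the same interval from both lists. The most-read one, chr17:34113714-34114143, measured 83.6 to 105 CPM in IP of db/db mice and 88.5 to 106 CPM in IP of db/m mice. The ranges lay on each other, and the log2 fold change was -0.05 in IP and 0.04 in RNA-seq. The next, chr17:34112889-34113177, gave 0.06 in IP and 0.16 in RNA-seq. In amount, then, neither library type separated the genotypes at the well-read Brd2 peaks.

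The peak closest to the 3′ end of Brd2, chr17:34112173-34112353, was singled out in earlier work on these data after its values were seen. Its IP levels were 14.4, 18.1, 8.89, 20.3, 32.3 and 11.7 CPM in db/db mice and 10.8, 4.13, 4.83, 9.36 and 12.8 CPM in db/m mice. Its RNA-seq levels were 20.5, 7.19, 9.71, 10.3, 15.8 and 12.4 CPM in db/db mice and 19.6, 10.4, 15.4, 13.4 and 15.2 CPM in db/m mice. IP was higher in 4 db/db mice than in any db/m mouse, while db/db 3 and 6 fell within the db/m range. RNA-seq of db/db 2, 3 and 4 was below every db/m mouse and that of db/db 1 above, so low RNA-seq enters the ratios of db/db 2, 3 and 4.

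The per-animal log2 ratio of IP over RNA-seq at this Brd2 peak was -0.48, 1.22, -0.12, 0.91, 0.99 and -0.08 in db/db mice and -0.80, -1.15, -1.49, -0.48 and -0.23 in db/m mice. In db/db mice 2, 4 and 5 the ratio was clearly the highest, and db/db 1 lay within the db/m range. The fitted difference was 1.33 (SE 0.30, adjusted p = 0.0293 by edgeR's quasi-likelihood test, exact permutation p = 0.013), with IP at 1.07 (SE 0.37, adjusted p = 0.0958) and RNA-seq at -0.22 (adjusted p = 0.589). Because the peak was singled out after its values were seen, these p-values are a description and not separate support. The call was made in a fit that gave the spread of a single peak no weight of its own. The call was lost with DESeq2 (1.33, adjusted p = 0.831), with limma (1.24, adjusted p = 0.600), with a filter on low counts (1.31, adjusted p = 0.708) and without any 1 of db/db 2, 4 or 5 or db/m 2 or 3 (adjusted p 0.111 to 0.255), while the log2 difference stayed between 1.15 and 1.53 with 1 animal left out.

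Within each animal, the log2 ratio of IP over RNA-seq at this peak minus that at the most-read Brd2 peak was higher in db/db mice by 1.32. For IP alone this difference was 1.04 and for RNA-seq alone -0.28. The peak was singled out after its values were seen, so this restates the difference above and no p is given. The other 4 Brd2 peaks, near the 5′ end, held 0.818 to 2.09 IP reads per library on average, and no fold change is given for them.

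**Figure D4:**
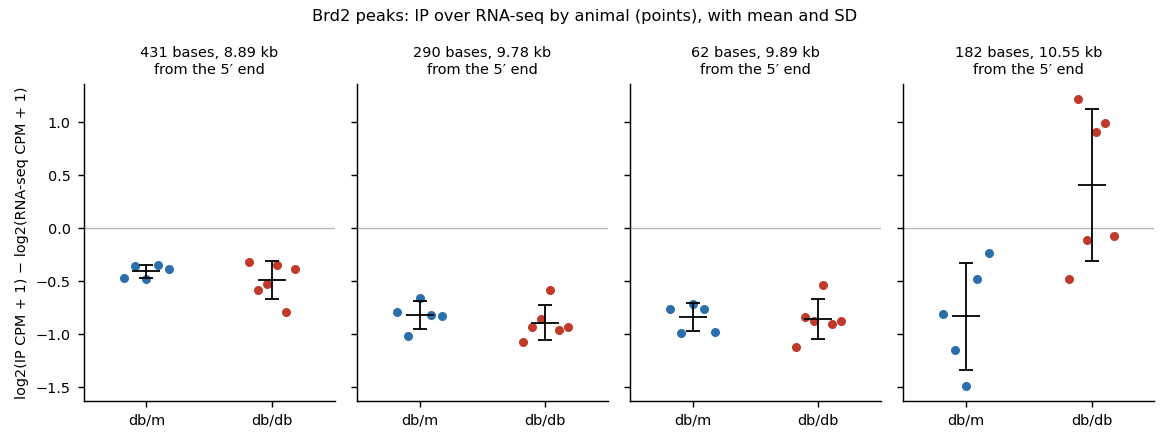
Per-animal log2(IP CPM + 1) minus log2(RNA-seq CPM + 1) at 4 Brd2 peaks, with 1 point per animal and the mean with its SD. The peaks are ordered by distance from the 5′ end of the gene, from 8.89 to 10.55 kb. In the last peak db/db 1 lies within the db/m range and every other db/db animal lies above it, and in the other peaks the genotypes overlap.

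Rere encodes a corepressor of the atrophin family that works with histone deacetylases in retinoic acid signalling. Its most-read peak, chr4:150615945-150616839, was in both lists and measured 219, 257, 368, 191, 159 and 152 CPM in IP of db/db mice and 118, 310, 180, 258 and 228 CPM in db/m mice. The genotypes overlapped over nearly their whole range, and the log2 fold change was 0.04 in IP and -0.08 in RNA-seq. The peak chr4:150620738-150620918 measured 41.9, 41.4, 38.3, 32.0, 42.7 and 32.1 CPM in RNA-seq of db/db mice and 27.6, 22.1, 28.1, 34.1 and 27.6 CPM in db/m mice. Only db/m 4 reached the db/db range. The log2 fold change was 0.45 (SE 0.15, adjusted p = 0.0563 by edgeR's quasi-likelihood test, exact permutation p = 0.013), which was not called, as no Rere peak was in any of the 3 fits.

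Most other chromatin genes did not pass the test. The remodelling ATPases and their subunits held 81 peaks of 23 genes with 15 called in IP and 15 in RNA-seq, 18.5% in each, all in Smarca2 and Chd3, which are 8.70% of the genes against 3.91% and 4.66% of all genes. An unadjusted p under 0.05 was reached by 21.2% of all peaks in IP and by 24.5% in RNA-seq, the shares to read the next counts against. The bromodomain readers held 38 peaks of 10 genes with 0 called in IP and in RNA-seq by edgeR, where 2 peaks (5.26%) had an unadjusted p under 0.05 in each, and DESeq2 called the 3′ Brd2 peak in IP (adjusted p = 0.0394). In the histone acetyltransferases (13 peaks of 5 genes, 8 of them under 10 IP reads) and in the lysine demethylases (12 peaks of 5 genes), 0 peaks had an unadjusted p under 0.05 in any fit. The deacetylases and sirtuins held 21 peaks of 8 genes and the lysine methyltransferases 23 peaks of 12 genes. By edgeR and by DESeq2 0 of these were called, and 2 (9.52%) and 0 peaks had an unadjusted p under 0.05 in IP, and 7 (33.3%) and 4 (17.4%) in RNA-seq. The nuclear receptor corepressors and coactivators, with Rere, held 12 peaks of 3 genes, of which 0 were called by either tool and 2 had an unadjusted p under 0.05 in RNA-seq.

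Among single genes below the fold threshold, the peak chrX:7931302-7931535 of Hdac6, a deacetylase that acts mainly on tubulin in the cytoplasm, was higher in RNA-seq by 0.75 (SE 0.21, adjusted p = 0.0235 by edgeR's quasi-likelihood test). For the SWI/SNF core subunit Smarcc1 the IP log2 fold change was -0.55 (adjusted p = 0.0728), and for the remodeller Chd1 at chr17:15750088-15752335 it was 0.84 (adjusted p = 0.136). For Smarca5, the ATPase of ISWI complexes, it was 0.51 (adjusted p = 0.166). The sirtuin Sirt7 gave -0.82 in IP (adjusted p = 0.13) at its 3′ peak. There db/m 1 measured 35.4 CPM, against 12.6 to 19.3 CPM in the other db/m mice and 6.6 to 14.4 CPM in db/db mice. Its other peaks gave -0.36 in IP. The mitochondrial deacetylase Sirt3 gave 0.67 in RNA-seq (adjusted p = 0.091) near its start. The methyltransferase Kmt5c gave 0.81 in IP relative to RNA-seq (adjusted p = 0.734 by edgeR's quasi-likelihood test), which was not called. DNA methylation enzymes, Dnmt3a and Tet3, had 3 peaks, all under 10 IP reads on average.

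Per length of peak, introns included, the single best-read peak of each family was as follows, which does not rank the families. The mean IP level was 1482 CPM per kb in Smarca2, 961 in Hist1h1c, 726 in Brd2 and 434 in the actin histidine methyltransferase Setd3. Deacetylases and sirtuins reached 426 CPM per kb in Sirt3, acetyltransferases 420 in Kat6a, corepressors 364 in Rere and demethylases 242 in Kdm5a. Tet3, which starts the removal of DNA methylation, reached 0.408 CPM per kb.

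A list of related chromatin genes outside the name pattern, such as further subunits of the NuRD, Sin3, INO80 and NuA4 complexes, held 133 peaks of 70 genes. Of these peaks 2 were called in IP and 2 in RNA-seq, 1.504% in each and so under the share of all peaks, and all were lower in db/db mice. An unadjusted p under 0.05 was found for 15 (11.3%) and 27 (20.3%), also under the shares of all peaks. Sap30, a subunit of the Sin3 deacetylase complex, fell by 2.12 on the log2 scale in IP (SE 0.22, adjusted p = 6.77e-06 by edgeR's quasi-likelihood test) and by 1.89 in RNA-seq (SE 0.18, adjusted p = 1.17e-06) at chr8:57485597-57487683. Actl6a, an actin-like subunit of several remodelling complexes, fell by 1.10 in IP (adjusted p = 0.0234), and the methyl-histone reader Ing5 fell by 1.52 in RNA-seq (adjusted p = 0.0426). In IP relative to RNA-seq 0 of the related peaks were called by edgeR, and 13 had an unadjusted p under 0.05.

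The ratio of IP over RNA-seq followed the place of the peak in its gene. Over the 173 member peaks with at least 10 RNA-seq reads on average, the median ratio of IP over RNA-seq CPM was 1.06, against 1.07 over all such peaks. It was 1.40 at 0 to 25% of the gene's length (31 peaks), 0.967 at 25 to 50% (22 peaks), 0.929 at 50 to 75% (34 peaks) and 1.06 at 75 to 100% (86 peaks). All peaks gave 1.29, 0.994, 0.957 and 1.05 in these 4 stretches. The last stretch held 49.7% of the member peaks and 46.5% of all peaks.

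None of these 173 peaks had a ratio above 3.62.

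**Figure D5:**
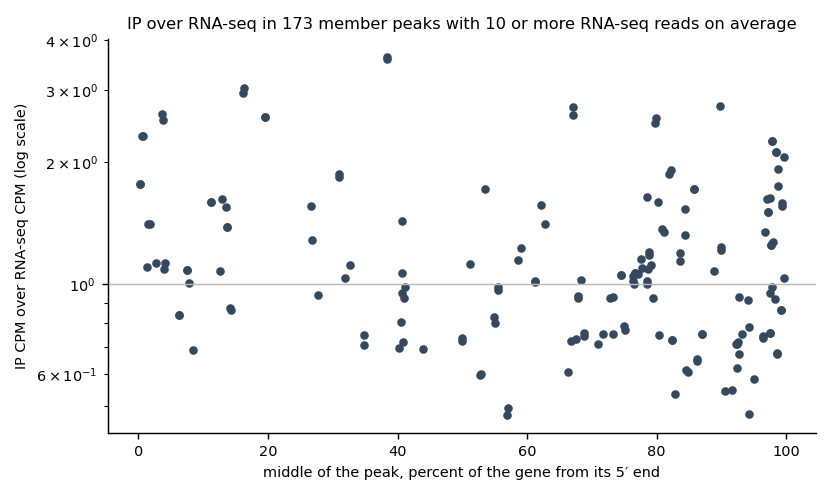
Ratio of IP over RNA-seq CPM (log axis) of the 173 member peaks with at least 10 RNA-seq reads on average, against the middle of the peak in percent of the gene from its 5′ end. The median is 1.40 at 0 to 25% of the gene and between 0.929 and 1.06 beyond it, and no peak lies above 3.62.

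A ratio of IP over RNA-seq above 4 is not particular to the members. Among peaks with at least 10 IP reads on average, 10 of 185 member peaks had one (5.41%). Of all such peaks 547 of 7422 did (7.37%). Within the first 5% of the gene lay 9 of these 10 and 219 of these 547. Some first peaks of members held IP reads with almost no RNA-seq reads. They passed a filter on IP reads alone, held under 10 RNA-seq reads on average and were chosen after their values were seen, so only reads are given, summed over the 11 animals. Crebbp, the histone acetyltransferase CBP, held 153 IP reads and 3 RNA-seq reads at chr16:4213398-4213637. Sirt1, a histone deacetylase, held 286 IP reads and 6 RNA-seq reads at chr10:63338777-63338897, with 0, 3, 47, 2, 45 and 4 IP reads in db/db mice and 0, 90, 30, 22 and 43 in db/m mice. The Sirt1 reads were thus spread very unevenly within both genotypes.

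The DNA-binding SWI/SNF subunit Arid1a held 2063 IP reads and 76 RNA-seq reads at chr4:133753328-133756410, with 37 to 243 IP reads in db/db mice and 84 to 191 in db/m mice other than db/m 2, which held 710. The demethylase Kdm1a held 467 and 41 reads and the methyltransferase Ash1l 117 and 3 reads at their first peaks.

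Brd2 was also compared with the other 71 member genes for the pattern of its IP level over the 11 animals, taking the most-read peak of each gene. The nearest were the remodeller Chd2 (Spearman rho = 0.918), the nucleolar remodelling subunit Baz2a (0.827) and the methyltransferase Kmt2b (0.736). The animals share library depth and genotype, and these values are a description over 11 points.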

How the data were processed

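Whole kidneys of 6 db/db and 5 db/m mice gave 11 acRIP-seq (IP) and 11 RNA-seq (input) libraries. Per the methods of the study, mRNA was selected on oligo d(T) beads, fragmented, precipitated with an ac4C antibody and sequenced. The genome build was GRCm38 per the labels; aligner, counter and peak caller are not given in the sources used here. The authors deposited 1 table of peaks, called for each genotype and not for single animals, with raw read counts of every library, a fold enrichment ratio and its p-value and false discovery rate from the peak caller; these last 3, and columns of the authors' own db/db against db/m comparison (log2 fold change, p and FDR), were not used. The table counts a start from 0, and starts are printed from 1. Whole kidney samples of separate animals were the replicates; libraries of single animals differed beyond sampling noise (lowest chi-square per degree of freedom 3.60 over 50 pairs). Where peaks of opposite strand covered each other by 90% or more (51 pairs), totals were within 1.25-fold in 50, so counts were read as unstranded.

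Counts were fitted in R 4.3.3 with edgeR 4.0.16 (TMM scaling, quasi-likelihood test, no filter, Benjamini-Hochberg over 9857 peaks) for IP, for RNA-seq, and for IP relative to RNA-seq with each animal as a term. A peak was called at an adjusted p under 0.05 and an absolute log2 fold change above 1. Single values were tested by a two-sided exact permutation over the 462 splits of the animals (smallest p 0.00216). DESeq2 1.42.0 and limma 3.58.1 (log2 of CPM plus 1, or plus 0.5) were alternatives, as were a low-count filter, no TMM scaling, 1 peak per overlapping group, a replicate block and leaving out each animal. The fits were also run on simulated counts with 200 changed peaks. IP recovered 199 with 8 false calls, RNA-seq 200 with 0, and IP relative to RNA-seq 193 with 0. All simulated peaks of a fit had the same spread, so this does not show how the fits handle peaks of unequal spread. Named by rule were members with a called peak, the 8 smallest p of each fit and the best-read peak of each family. Brd2 and Rere were named as well, as were the 3 genes nearest to Brd2 by IP level. The partners Smarca4, Chd4, Smarcc2 and Smarce1, and the comparison of H1f0 with Hist1h1c, were added after their values were seen. So were first peaks with few RNA-seq reads. Other single genes, such as Hdac6, Smarcc1, Smarca5 and H2afj, were named outside the rule. Members and lists were chosen with earlier results of these data known. Promoter sequences are from RefSeq (GRCm38.p6).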

Additional observations from a re-analysis of the deposited data

Results flagged for a closer look

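In 16 of the peaks named in the report, 64 groups of animals were searched for an animal far from the rest of its genotype (Dixon's 95% critical value). The other named peaks were not searched. There were 11 found, where chance gives about 3.2 if the groups were independent, which they were not. Animal db/m 2 was the highest of its genotype in 5 of them. In the first Smarca2 peak it measured 245 CPM in IP (others 56.2 to 87.5) and 274 CPM in RNA-seq (others 50.4 to 99.5). In the Chd3 peak chr11:69360631-69362103 it measured 1072 CPM in IP (others 484 to 525) and 495 CPM in RNA-seq (others 262 to 307). In the 5′ Chd3 peak it measured 1818 CPM in IP (others 1095 to 1176).

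Animal db/db 6 was the highest of its genotype in 5 more, all in Chd3. In the peak chr11:69360631-69362103 it measured 361 CPM in IP (others 178 to 246) and 194 CPM in RNA-seq (others 102 to 135). In RNA-seq it measured 62.8 CPM at chr11:69344381-69345188 (others 29.1 to 41.1) and 224 CPM at chr11:69347844-69348971 (others 96.4 to 123), and in IP 14.8 CPM at chr11:69350845-69350905 (others 4.82 to 7.69). The peaks of a gene share its transcripts, so these are not separate events. The last of the 11 was Brd2 at chr17:34112889-34113177, where db/m 2 was lowest in IP with 32.0 CPM (others 47.4 to 49.8).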

How the results depend on the processing

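Over the 60 values of single peaks, 958 alternative values were computed: 913 kept direction and side of the threshold, 26 lost the threshold, 2 gained it and 17 changed sign. The 17 were values near 0. For the most-read Brd2 peak the log2 fold change was 0.0462 in IP without TMM scaling and ranged, leaving out 1 animal at a time, from -0.0837 to 0.0093 in IP and from -0.0097 to 0.0870 in RNA-seq. With 1 animal left out, the Brd2 peak chr17:34112889-34113177 ranged from -0.0399 to 0.129 in IP, and chr17:34112889-34112949 from -0.0738 to 0.0384 in IP relative to RNA-seq. The most-read Rere peak ranged from -0.16 to 0.19 in IP and from -0.27 to 0.0844 in RNA-seq, where it was 0.0023 without TMM scaling and 2.4e-05 with the replicate block.

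With 1 peak per overlapping group, 9 member peaks were called in IP and 10 in RNA-seq, since overlapping peaks are then counted once. In IP relative to RNA-seq the count of called members was 0 with DESeq2, with the filter on low counts, with limma, with limma at a pseudocount of 0.5 and with limma and a replicate block, and 0 to 1 with 1 animal left out. Leaving out 1 animal gave 14 to 18 called peaks in IP and 17 to 20 in RNA-seq. Replicate numbers did not pair the animals (correlations of deviations -0.246 to 0.209 in IP, -0.398 to 0.515 in RNA-seq), and with the number as a replicate block 18 and 19 peaks were called, the Brd2 peak being added in IP (adjusted p = 0.0224 by edgeR's quasi-likelihood test). Depth limits the 30 peaks under 10 IP reads on average, and their fold changes are not given.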
